A study of Mus musculus with 8 samples.

Results

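Complex I of the respiratory chain was followed through every gene of the table whose symbol begins with Nduf. This rule found 45 of the 14012 genes, 38 named as subunits (Ndufa, Ndufab, Ndufb, Ndufc, Ndufs and Ndufv) and 7 named as assembly factors (Ndufaf), and no pseudogene symbol ending in -ps was among them. RNA sequencing covered 8 libraries of quadriceps femoris (QF), a large thigh muscle, each from a separate mouse. The 4 libraries labelled knockout came from Grpel1 smk -/- mice, in which tamoxifen switches on a Cre recombinase made under the human skeletal muscle α-actin promoter and the Cre removes the floxed Grpel1. The 4 labelled control came from Grpel1 flox/flox mice. All the mice thus carry the floxed gene. The study began tamoxifen at 5 weeks of age, on 5 days in a row, and took the knockouts at their endpoint, while its text calls Grpel1 flox/flox littermates untreated without saying whether these were the mice sequenced. A muscle fibre promoter leaves the gene intact in the vessels, connective tissue, fat and immune cells that the muscle also holds.

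Complex I takes electrons from NADH in the matrix and hands them to ubiquinone in the inner membrane, and it pumps protons across that membrane while doing so. It is built from modules: the N module holds the flavin that accepts electrons from NADH, the Q module carries them along iron-sulfur clusters to ubiquinone, and the membrane arm holds the proton channels, with a proximal part beside the Q module and a distal part at the far end. A core of subunits shared with bacteria does the chemistry, some of them encoded in the nucleus (Ndufv1, Ndufv2, Ndufs1, Ndufs3, Ndufs7 and Ndufs8 among them) and others, the ND proteins, in mitochondrial DNA. The accessory subunits surround the core, and assembly factors help to build the enzyme without staying in it. Nuclear-encoded subunits are made in the cytosol and imported, and GRPEL1 is a co-chaperone of the mitochondrial HSP70 motor that pulls proteins into the matrix. Skeletal muscle fibres, with their high demand for ATP, are rich in the enzyme.

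The libraries held between 16017565 and 20361144 counts on the genes of the table. The targeted gene, Grpel1, was counted 861, 1087, 961 and 1017 times in the 4 control libraries. In the knockout libraries these numbers were 1658, 1570.0, 1461 and 1508. On TMM-scaled libraries it did not pass the threshold (log2 fold change -0.07, SE 0.08, edgeR adjusted p = 0.487), so the count of the whole gene does not check the labels and the groups are called by them. At the protein level, the paper reports less GRPEL1 in knockout QF by immunoblot and immunostaining. The 20 genes with the most control counts took between 36.5% and 40.1% of the counts of a control library and between 16.97% and 20.7% of those of a knockout library. TMM scaling, which sets libraries level on the bulk of their genes, gave factors of 0.747 to 0.844 for the controls and 1.19 to 1.33 for the knockouts. Over all genes the log2 fold change had a median of 0.07 on this scale and 0.73 on library totals alone. Values below are counts relative to the TMM-scaled library size (CPM) unless totals are named, and a fold change says how a gene moved relative to the other genes. Where 4 values are given, they are those of replicates 1 to 4 in order, and gene positions are those of the table on GRCm38.

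Of the 38 genes named as subunits, 34 were lower in the knockouts and none was higher at an edgeR adjusted p under 0.01 on TMM-scaled libraries, whereas on library totals alone 4 were lower and 8 higher. Over all 14012 genes 21.1% were called lower and 23.6% higher with TMM, and 6.23% lower and 60.6% higher with totals alone. The median log2 fold change of the subunits was -0.60 on the TMM scale, with values from -1.23 to 0.03, and 0.07 on totals alone, where all genes together had 0.73. The CPM of the groups did not overlap, with every knockout library below every control library, for 34 of the 38, against 24.4% of all genes. Summed over the 38 genes, the control libraries held 7838 ± 369 CPM and the knockout libraries 4983 ± 323 CPM (SD, n = 4 each). As a share of all counts they took 0.622% ± 0.0262 and 0.628% ± 0.0341. The subunits therefore lost ground to most other genes, while their part of the whole library differed by less than the spread between replicates. The scalings run were TMM, RLE, upper-quartile, totals with the median gene at 0, and totals alone. Under all 5 of them, 6 of the 45 genes were called lower, among them the subunits Ndufc1, Ndufb2 and Ndufs1 and the factors Ndufaf5 and Ndufaf6. Under the first 4, 38 were.

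**Figure D1:**
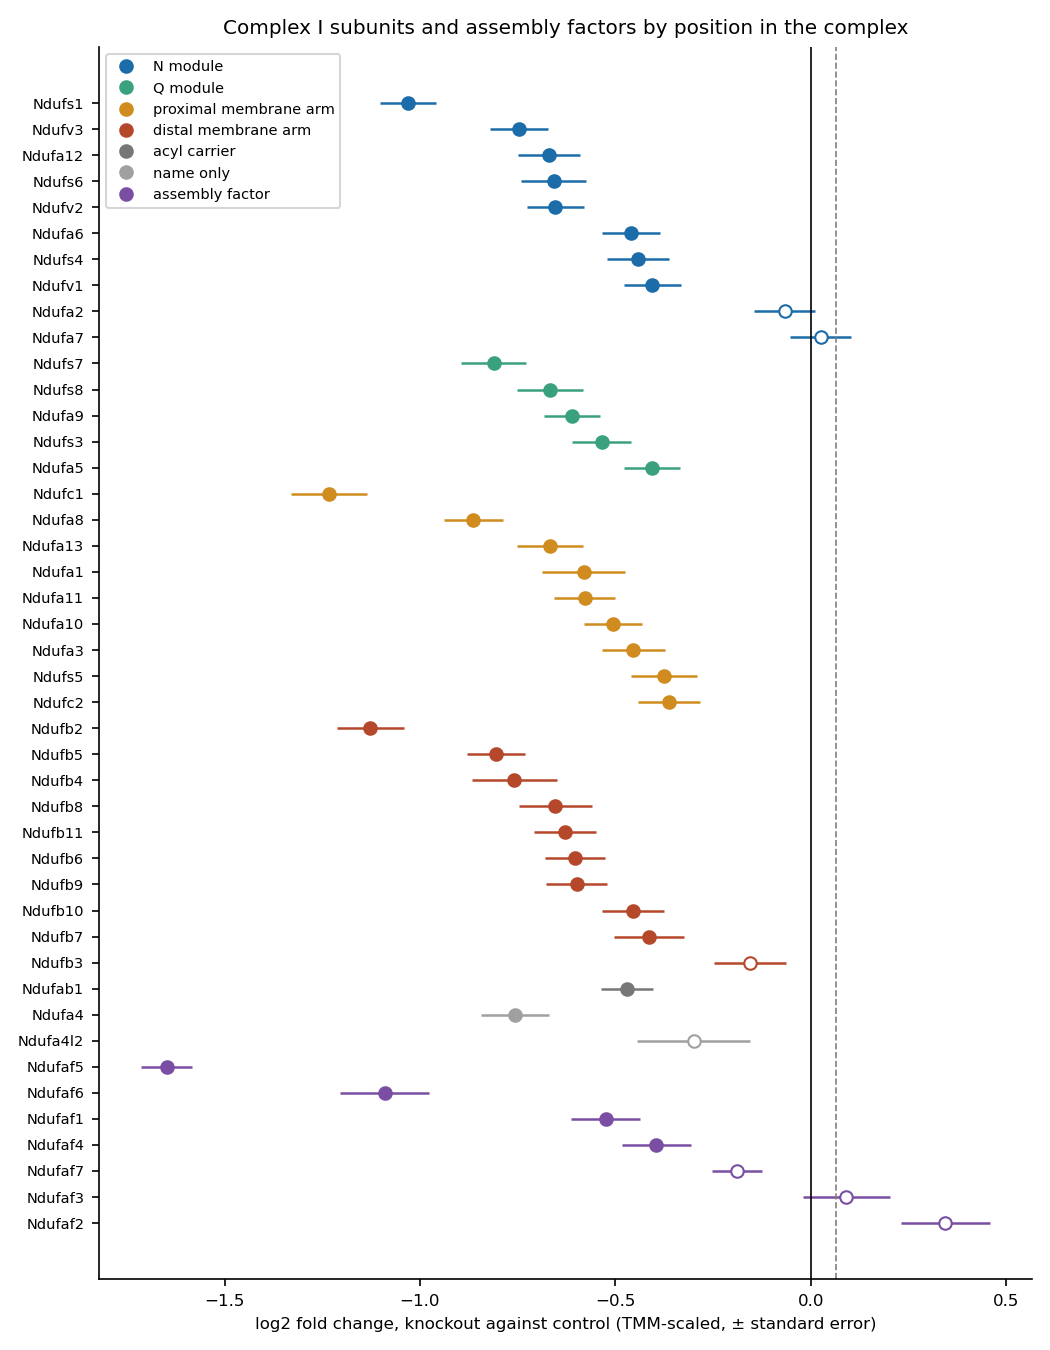
Log2 fold change of 44 of the 45 genes, knockout against control on TMM-scaled libraries, with bars of 1 standard error, grouped by position in the complex; filled points passed an adjusted p under 0.01 and open ones did not. The solid line is 0 and the dashed line is the median of all genes, 0.07; the subunits lie between -1.23 and 0.03, with a median of -0.60 that becomes 0.07 on library totals alone.

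The 6 nuclear core subunits described here were lower past the threshold on the TMM scale, with log2 fold changes from -1.03 to -0.41, whereas on library totals alone Ndufv1 was called higher and the median gene stood at 0.73. In the N module, Ndufv1 binds NADH and the flavin, Ndufv2 holds an iron-sulfur cluster beside it, and Ndufs1 carries the electrons on. Ndufs1 (Entrez Gene 227197, chromosome 1 from 63143592 to 63176822, minus strand) had 451, 505, 476 and 479.8 CPM in the control libraries and 252, 224, 229 and 231 CPM in the knockout libraries. The groups were far apart, with no knockout library above 252 CPM, and the fall was among the largest of the subunits (log2 fold change -1.03, SE 0.07, edgeR adjusted p = 1.77e-06). Ndufv2 (Entrez Gene 72900, chromosome 17 from 66078795 to 66101559, minus strand) had 379, 403, 413 and 359 CPM in the control libraries and 264, 241, 242 and 241 CPM in the knockout libraries, with knockout replicate 1 the highest of its group (log2 fold change -0.65, SE 0.07, edgeR adjusted p = 3.77e-05). Ndufv1 (Entrez Gene 17995, chromosome 19 from 4007499 to 4012755, minus strand) had 353, 388, 382 and 375 CPM in the control libraries and 308, 267, 283 and 273 CPM in the knockout libraries. It had the smallest fold change of the core genes, and its groups did not overlap (log2 fold change -0.41, SE 0.07, edgeR adjusted p = 0.000834).

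In the Q module, Ndufs7 lines the pocket where ubiquinone is reduced, Ndufs8 holds a pair of iron-sulfur clusters and Ndufs3 is among the first subunits to join during assembly. Ndufs7 (Entrez Gene 75406, chromosome 10 from 80249452 to 80256792, plus strand) had 249, 247, 266 and 216 CPM in the control libraries and 153, 131, 137 and 136 CPM in the knockout libraries. Control replicate 4 was the lowest control and still above all knockouts (log2 fold change -0.81, SE 0.08, edgeR adjusted p = 2.17e-05). Ndufs8 (Entrez Gene 225887, chromosome 19 from 3908863 to 3912774, minus strand) had 121, 140.5, 131 and 120.1 CPM in the control libraries and 85.6, 71.4, 78.7 and 87.0 CPM in the knockout libraries, again without overlap (log2 fold change -0.67, SE 0.08, edgeR adjusted p = 8.87e-05). Ndufs3 (Entrez Gene 68349, chromosome 2 from 90894636 to 90904721, minus strand) had 199.6, 198, 209 and 176 CPM in the control libraries and 146, 133, 133 and 128 CPM in the knockout libraries. Its groups did not overlap either (log2 fold change -0.53, SE 0.08, edgeR adjusted p = 0.000176). Of its 75-base windows, 27.1% also occur in a pseudogene, with Gm12251 sharing the most, so its reads can be lost where multimapping reads are left out.

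**Figure D2:**
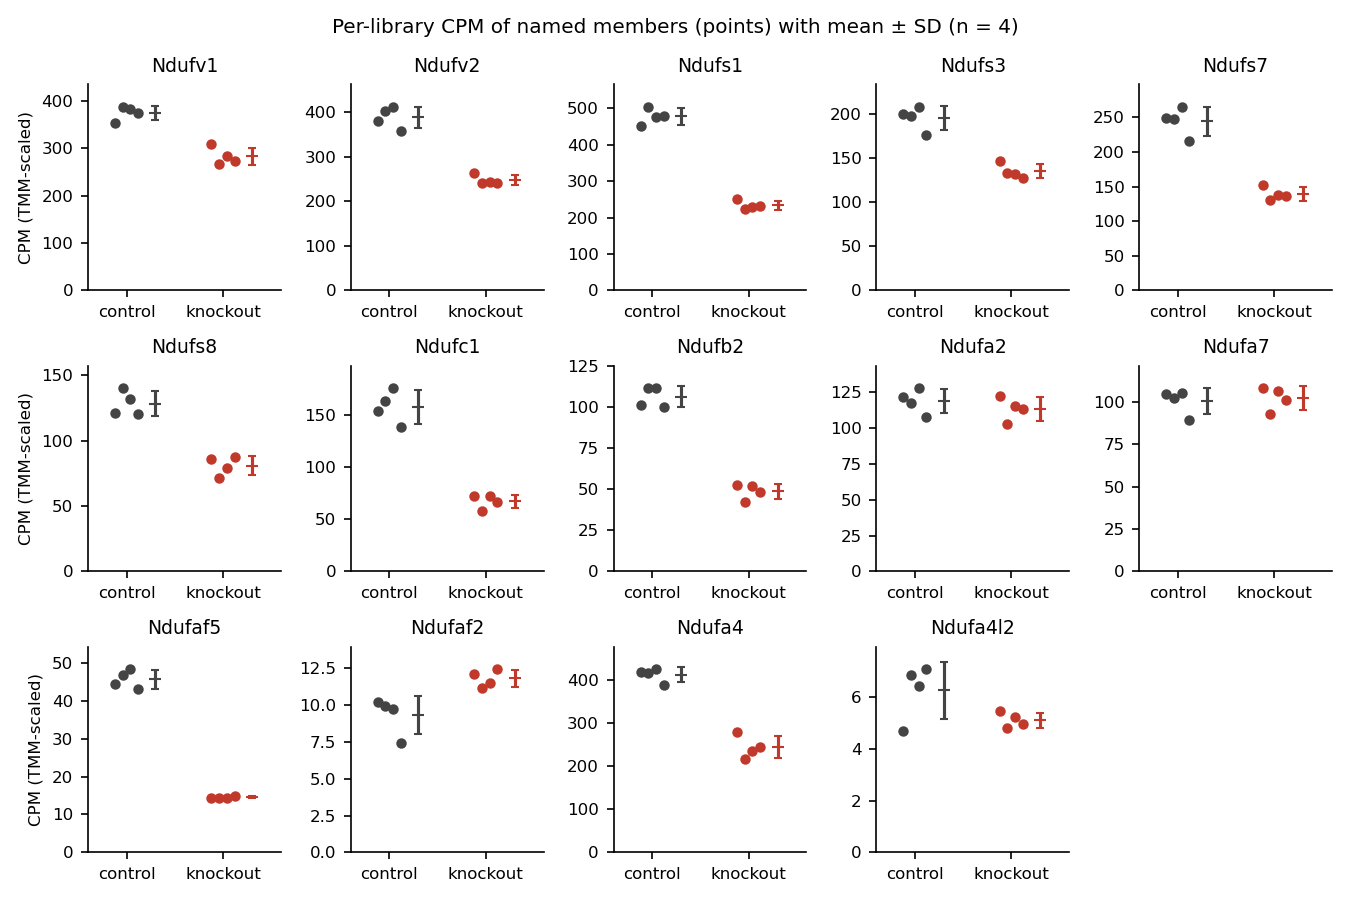
CPM on TMM-scaled libraries (y axis, from 0) of 14 genes in the 4 control and 4 knockout libraries (x axis), 1 point per library, with the mean and SD of each group beside the points. The 6 core subunits, Ndufc1, Ndufb2, Ndufaf5 and Ndufa4 have no knockout library as high as a control library on this scale, Ndufaf2 has none as low, and Ndufa2, Ndufa7 and Ndufa4l2 overlap; on library totals alone the fold changes of Ndufv1, Ndufv2, Ndufs3 and Ndufa4l2 turn positive, as does that of Ndufa2, and that of Ndufs8 lies close to 0.

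Genes called lower on the TMM scale stood in each of the modules, whose medians lay above 0 on library totals alone. Over all genes 21.1% were called lower on the TMM scale. In the N module 8 of 10 (median log2 fold change -0.56, or 0.11 on totals alone) were called lower. In the Q module it was 6 of 6 (median log2 fold change -0.64, or 0.03 on totals alone). In the proximal membrane arm it was 9 of 9 (median log2 fold change -0.58, or 0.09 on totals alone), and in the distal membrane arm 9 of 10 (median log2 fold change -0.62, or 0.05 on totals alone). The 29 accessory subunits had a median of -0.58 (0.08 on totals alone) and 26 of them were called lower. The difference between core and accessory subunits was not tested.

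The largest falls among the subunits were in the membrane arm. Ndufc1 (Entrez Gene 66377, chromosome 3 from 51405479 to 51408955, minus strand), a small membrane subunit of the proximal arm, had 154, 164, 177 and 138 CPM in the control libraries and 72.1, 58.5, 72.2 and 66.4 CPM in the knockout libraries. The knockout mean was 42.5% of the control mean and no library crossed over (log2 fold change -1.23, SE 0.10, edgeR adjusted p = 3.87e-06). Ndufb2 (Entrez Gene 68198, chromosome 6 from 39592583 to 39599471, plus strand), an accessory subunit of the distal arm, had 101, 112, 112 and 100.4 CPM in the control libraries and 52.7, 42.1, 51.7 and 48.3 CPM in the knockout libraries. Knockout replicate 2 was the lowest library, and the groups did not overlap (log2 fold change -1.13, SE 0.08, edgeR adjusted p = 2.96e-06). Other accessory subunits of the membrane arm fell by less on the TMM scale: Ndufa8 (-0.86), an intermembrane space protein with twin cysteine motifs, Ndufb5 (-0.81), Ndufb4 (-0.76), Ndufa13 (-0.67), Ndufb8 (-0.65), Ndufb11 (-0.63), Ndufb6 (-0.60), Ndufb9 (-0.60), Ndufa1 (-0.58), Ndufa11 (-0.58), Ndufa10 (-0.51), which resembles nucleoside kinases, Ndufb10 (-0.46), Ndufa3 (-0.45), Ndufb7 (-0.41), Ndufs5 (-0.38), Ndufc2 (-0.36), each value being a log2 fold change that passed the threshold. Of these 16, Ndufb7, Ndufc2 and Ndufs5 were called higher on library totals alone, with 0.26, 0.31 and 0.30, where the median gene had 0.73.

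In the peripheral arm, the accessory subunits of the N module that fell on the TMM scale were Ndufv3 (-0.75), Ndufa12 (-0.67), Ndufs6 (-0.66), Ndufa6 (-0.46), Ndufs4 (-0.44), and those of the Q module were Ndufa9 (-0.61), Ndufa5 (-0.41). Ndufa12 sits where the assembly factor Ndufaf2, its paralogue, is bound earlier, Ndufs6 binds zinc, Ndufs4 is often mutated in human Leigh syndrome, and Ndufa9 binds NADPH beside the ubiquinone pocket. On library totals alone Ndufa5 was called higher, at 0.26, as was the core subunit Ndufv1, at 0.26, where the median gene had 0.73. Ndufab1, the mitochondrial acyl carrier protein that is present in both arms of the enzyme and also serves fatty acid synthesis, had a log2 fold change of -0.47 and means of 79.2 ± 3.87 CPM and 57.2 ± 2.96 CPM in control and knockout libraries (SD, n = 4 each).

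Of the subunits proper, 3 did not pass the threshold on the TMM scale. Ndufa7 (Entrez Gene 66416, chromosome 17 from 33824572 to 33838316, plus strand), an accessory subunit of the N module, had 105, 102, 105 and 89.3 CPM in the control libraries and 108, 92.9, 106 and 101 CPM in the knockout libraries. The groups overlapped almost wholly (log2 fold change 0.03, SE 0.08, edgeR adjusted p = 0.791), and the 95% interval of its log2 fold change ran from -0.15 to 0.20. Ndufa2 (Entrez Gene 17991, chromosome 18 from 36742332 to 36744587, minus strand), an N module subunit with a thioredoxin-like fold, had 122, 117, 128 and 108 CPM in the control libraries and 123, 103, 116 and 113 CPM in the knockout libraries. Its libraries were mixed between the groups too (log2 fold change -0.07, SE 0.08, edgeR adjusted p = 0.488), with an interval from -0.24 to 0.11. Ndufb3, of the distal membrane arm, had means of 98.4 ± 5.91 CPM and 88.3 ± 10.4 CPM in control and knockout libraries (SD, n = 4 each) with overlapping groups (log2 fold change -0.16, SE 0.09, edgeR adjusted p = 0.169; interval from -0.36 to 0.05). The lower bounds of all 3 lie above the median of the subunits, -0.60. On library totals alone all 3 were called higher, at 0.69, 0.60 and 0.51. There 60.6% of all genes were called higher and the median gene stood at 0.73, above all 3. The span of Ndufa2 overlaps that of Tmco6 on the opposite strand, and whether strand was used in the counting is not stated.

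**Figure D3:**
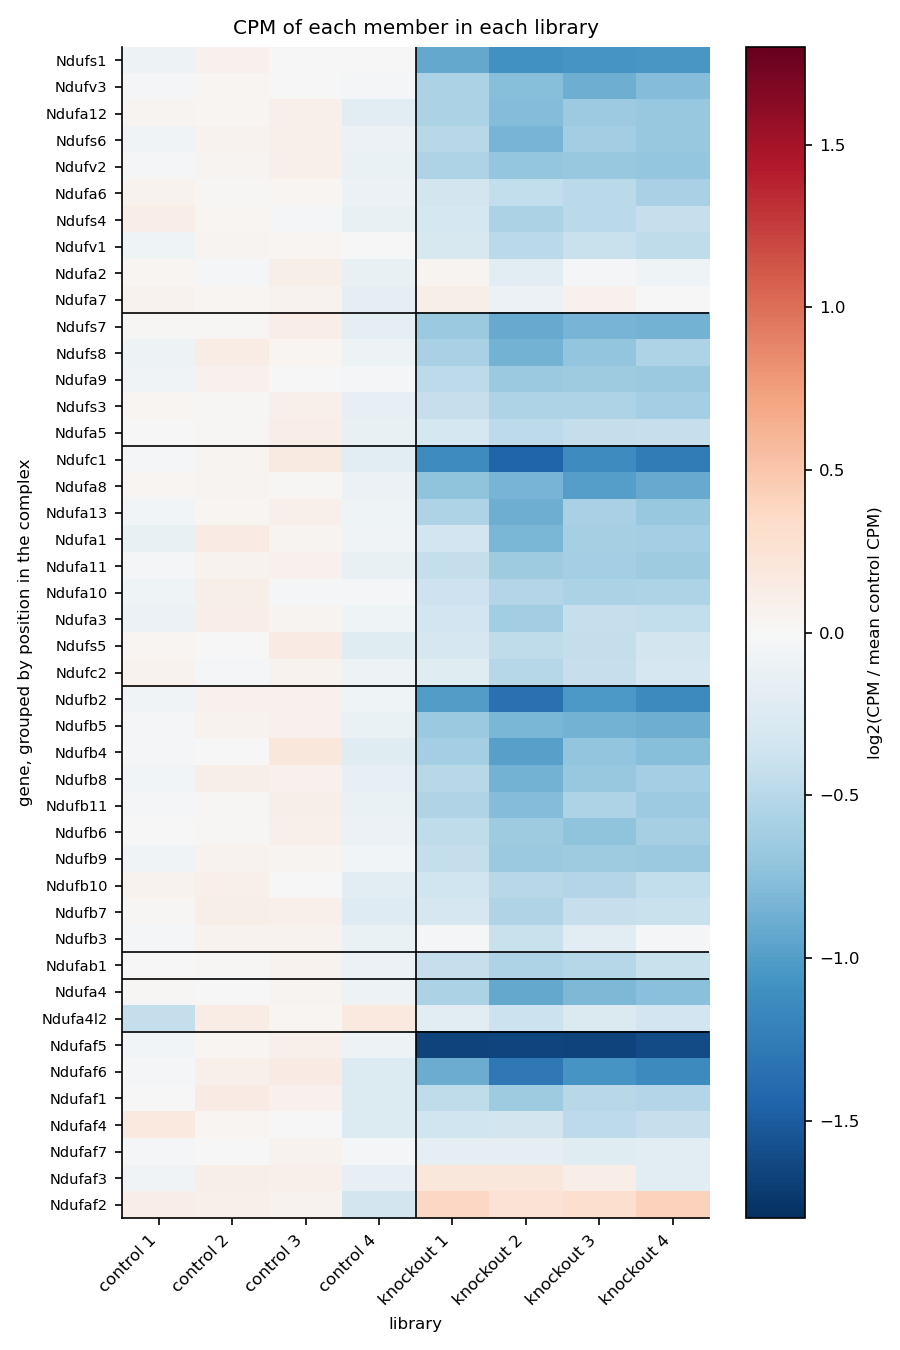
CPM on TMM-scaled libraries of 44 of the 45 genes (rows, grouped by position in the complex) in the 8 libraries (columns), as log2 of the ratio to the mean of the 4 control libraries; blue is below that mean and red above it. The knockout columns are mostly blue for the subunits, pale for Ndufa7, Ndufa2 and Ndufb3, and red for Ndufaf2; knockout replicate 1 is the palest of its group, and on library totals alone 28 of the 45 genes change sign.

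On the TMM scale the libraries of a group kept a steady order over the subunits. Control replicate 4 was the lowest control for 29 of the 38 genes, knockout replicate 1 was the highest knockout for 35 and knockout replicate 2 the lowest for 28. The summed CPM of the subunits was 7771, 8115, 8123 and 7343 in the 4 controls, and 5435, 4669, 4923 and 4907 in the 4 knockouts. The spread within each group was thus mostly shared by the genes on this scale, and it was small beside the gap between the groups. As a share of all counts the order differed. The lowest control was then replicate 1 (0.601%, against 0.619% for replicate 4). The lowest knockout was replicate 3 (0.586%, against 0.621% for replicate 2), and knockout replicate 1 stayed the highest at 0.667%.

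Ndufa4 and Ndufa4l2 carry complex I names, but Ndufa4 is today counted with complex IV, and Ndufa4l2, its paralogue, is known as a target of hypoxia-inducible factors. Ndufa4 (Entrez Gene 17992, chromosome 6 from 11900373 to 11907446, minus strand) had 419, 415, 426 and 388 CPM in the control libraries and 278, 217, 236 and 244 CPM in the knockout libraries. It moved much as the subunits did, with no overlap (log2 fold change -0.76, SE 0.09, edgeR adjusted p = 4.26e-05), and at 838 RPKM, which is CPM per kilobase of exon, it was the most abundant of the 45 genes in the controls. Ndufa4l2 (Entrez Gene 407790, chromosome 10 from 127514939 to 127517154, plus strand) had 4.69, 6.87, 6.44 and 7.12 CPM in the control libraries and 5.46, 4.81, 5.24 and 4.97 CPM in the knockout libraries. Control replicate 1 lay below all knockouts and the other controls above them, so the groups overlapped and the gene did not pass the threshold (log2 fold change -0.30, SE 0.14, edgeR adjusted p = 0.09996; two-sided exact permutation p = 0.143 over 70 assignments). Its span overlaps Shmt2 on the opposite strand, which had a log2 fold change of 1.34 and a mean of 454 counts in the controls. Ndufa4l2 itself had 58, 105, 90 and 113 counts in the control libraries. Whether reads of Shmt2 entered the count of Ndufa4l2 was not tested. Without Ndufa4 and Ndufa4l2, 33 of the 36 subunits were lower and the median log2 fold change stayed at -0.60, with 0.07 on library totals alone.

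The 7 Ndufaf genes did not move as a block. On the TMM scale 4 were called lower and none higher, and on library totals alone 2 were lower and 3 higher, with medians of -0.40 and 0.28. Of all genes, 21.1% were called lower and 23.6% higher with TMM, and 6.23% lower and 60.6% higher with totals alone. The largest fall of all 45 genes was that of Ndufaf5 (Entrez Gene 69487, chromosome 2 from 140170646 to 140205252, plus strand), which encodes the enzyme that hydroxylates an arginine of NDUFS7 during early assembly. It had 44.3, 46.7, 48.5 and 43.0 CPM in the control libraries and 14.3, 14.5, 14.4 and 14.9 CPM in the knockout libraries. The 4 knockout libraries lay far below the controls, with an SD of 0.274 CPM around a mean that was 31.9% of the control mean (log2 fold change -1.65, SE 0.07, edgeR adjusted p = 8.53e-08), and on library totals alone the log2 fold change was still -0.98. Ndufaf6, which acts early in assembly, had 24.1, 26.1, 27.1 and 20.7 CPM in the control libraries and 13.2, 10.03, 11.7 and 11.0 CPM in the knockout libraries. Its groups were also well apart (log2 fold change -1.09, SE 0.11, edgeR adjusted p = 2.38e-05). Ndufaf1, part of the assembly complex that builds the proximal membrane arm, had means of 43.8 ± 4.91 and 30.5 ± 1.59 CPM (SD, n = 4 each) and fell by less (log2 fold change -0.52, SE 0.09, edgeR adjusted p = 0.000578). Ndufaf4, which anchors the Q module to the membrane together with Ndufaf3, had means of 60.6 ± 7.14 and 46.0 ± 1.93 CPM (log2 fold change -0.40, SE 0.09, edgeR adjusted p = 0.00334). The call of Ndufaf4 needed control replicate 2, without which its edgeR adjusted p was 0.0113.

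The other 3 did not pass the threshold on the TMM scale and were called higher on library totals alone, as were 60.6% of all genes. Ndufaf2 (Entrez Gene 75597, chromosome 13 from 108052589 to 108158625, minus strand), the chaperone of the late N module, had 10.2, 9.95, 9.73 and 7.44 CPM in the control libraries and 12.1, 11.2, 11.5 and 12.5 CPM in the knockout libraries. All 4 knockout libraries lay above all controls, which held for 29% of all genes, but the gene did not pass 0.01 (log2 fold change 0.34, SE 0.11, edgeR adjusted p = 0.0246). Its 95% interval, from 0.09 to 0.60, lies apart from that of its paralogue Ndufa12, from -0.85 to -0.49. Ndufaf3 had means of 12.8 ± 1.10 and 13.7 ± 1.63 CPM with overlapping groups (log2 fold change 0.09, SE 0.11, edgeR adjusted p = 0.504). Ndufaf7, an arginine methyltransferase, had means of 21.96 ± 0.765 and 19.3 ± 0.302 CPM without overlap (log2 fold change -0.19, SE 0.06, edgeR adjusted p = 0.0292). Ndufaf8, which stabilizes Ndufaf5, is listed under an older symbol, 1810043H04Rik, that the Nduf rule does not reach. It had means of 12.8 ± 1.41 and 11.9 ± 1.86 CPM (log2 fold change -0.10, SE 0.13, edgeR adjusted p = 0.546).

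Ratios between partners within a library do not depend on the scaling, and 6 pairs known to work side by side were compared as a description, since they were picked with the values known. The log2 ratio of Ndufaf5 to its stabilizer Ndufaf8 was 1.84 ± 0.12 in control libraries and 0.30 ± 0.23 in knockout libraries (SD, n = 4 each). The log2 ratio of Ndufc1 to Ndufc2, which sit together in the membrane, was 0.44 ± 0.11 in control libraries and -0.42 ± 0.11 in knockout libraries. The ratio of Ndufs1 to Ndufs4, both of the N module, was 1.74 ± 0.15 in control libraries and 1.15 ± 0.05 in knockout libraries. The ratio of Ndufv1 to Ndufv2, which bind each other, was -0.05 ± 0.08 in control libraries and 0.19 ± 0.04 in knockout libraries, and that of Ndufaf3 to Ndufaf4 was -2.24 ± 0.16 in control libraries and -1.76 ± 0.17 in knockout libraries. The ratio of Ndufs7 to Ndufs8, neighbours at the end of the electron path, was 0.93 ± 0.12 in control libraries and 0.79 ± 0.10 in knockout libraries. These ratios were not tested.

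Levels were compared between genes per length, in RPKM on TMM-scaled libraries. In the controls the 36 subunits proper ran from 40.1 ± 2.70 RPKM for Ndufa11 to 603 ± 26.8 RPKM for Ndufb9 (SD, n = 4), and the 7 Ndufaf genes from 9.53 RPKM for Ndufaf7 to 30.2 RPKM for Ndufaf1, all below the lowest of those subunits. The exon width of the table joins all exons of a gene, 2661 bases for Ndufa11 and 3632 bases for Ndufaf4, and a wide one lowers the RPKM. Ndufb9 was the highest and Ndufa11 the lowest of the 36 in both groups. The SD of log2 RPKM over the 36 genes was 0.87 in the controls and 0.84 in the knockouts. Within that order Ndufc1 went from place 5, with 382 RPKM, to place 15, with 163 RPKM. Ndufb2 went from place 17 to place 27, and Ndufa2 from place 23 to place 8, with 197 and 188 RPKM. Many genes in the middle of the order are neighbours within their SDs, so single places there are not distinct.

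**Figure D4:**
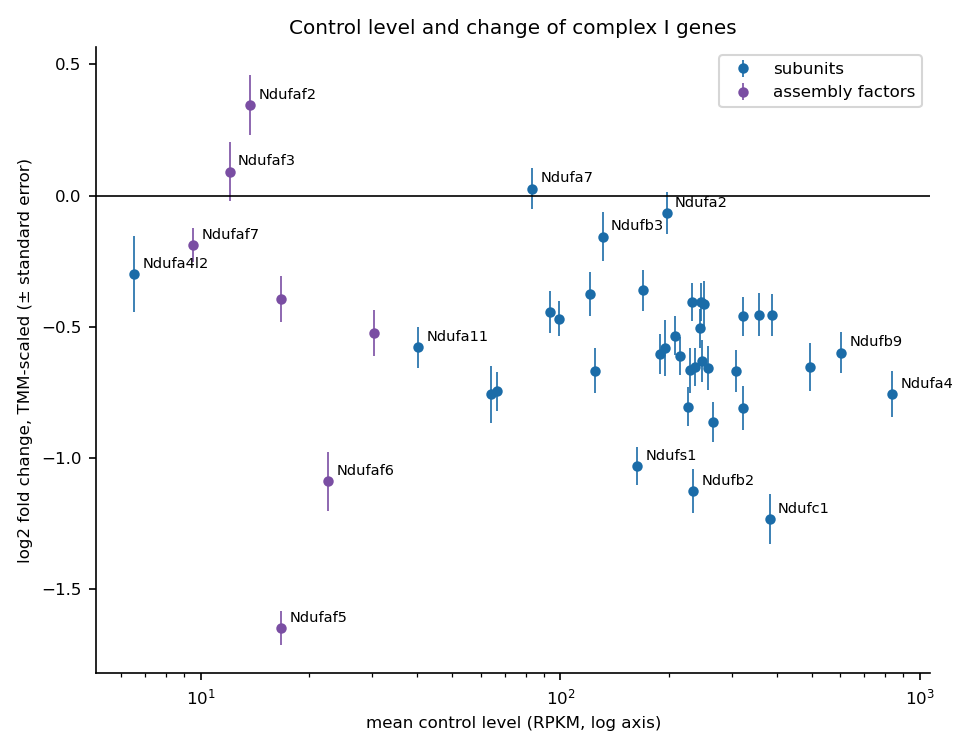
Mean control level in RPKM (x axis, log scale) and log2 fold change on TMM-scaled libraries with its standard error (y axis) for 37 of the 38 subunit-named genes and 7 Ndufaf assembly factors. The factors lie at 9.53 to 30.2 RPKM and spread from -1.65 to 0.34, while the middle of the subunits lies between -0.73 and -0.45, their quartiles; library totals alone move all points up by about the shift of the median gene, from 0.07 to 0.73.

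Assembly factors with other names were mixed as well. Of 15 found in the table, 7 were called lower and 1 higher on the TMM scale, with a median log2 fold change of -0.32 (0.35 on library totals alone, where none was lower and 8 were higher). Over all genes 21.1% were called lower and 23.6% higher with TMM, and 6.23% lower and 60.6% higher with totals alone. Of 5 that act with Ndufaf1 in building the membrane arm, put together after their values were seen, 4 fell on the TMM scale, Tmem126b (-0.88), Tmem186 (-0.69), Ecsit (-0.58), Acad9 (-0.50), and Timmdc1 (-0.32) did not pass (edgeR adjusted p = 0.0109). Tmem126a (-0.53), Atp5sl, also called Dmac2 (-0.66), and Tmem70 (-0.41), which also helps to assemble ATP synthase, fell too. Foxred1, a factor of the middle and late stages, was the gene called higher, with means of 25.3 ± 0.278 and 33.7 ± 2.15 CPM (SD, n = 4 each; log2 fold change 0.42, SE 0.07, edgeR adjusted p = 0.000399). Oxa1l (-0.22), Aifm1 (-0.18), Tmem261 (-0.11), Nubpl (0.15), Lyrm2 (0.28) and Sfxn4 (0.41) did not pass.

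The ND genes, the core subunits encoded in mitochondrial DNA, had log2 fold changes from -2.05 to -1.31, all below those of the nuclear core subunits. Of 6 ND genes in the table, 5 were called lower with TMM, against 21.1% of all genes. Their median log2 fold change was -1.81 with TMM and -1.15 with library totals alone. ND1, in the proximal membrane arm, had means of 15420.0 ± 939 CPM and 3937 ± 469 CPM in control and knockout libraries (SD, n = 4 each; log2 fold change -1.97, SE 0.13, edgeR adjusted p = 1.31e-06), and ND2 had 12294 ± 359.8 and 2968 ± 454 CPM (log2 fold change -2.05, SE 0.14, edgeR adjusted p = 1.45e-06). ND4, ND5 and ND6 had log2 fold changes of -1.65, -1.55 and -1.31, all past the threshold. ND3 had at most 17 counts in a library and did not pass. The libraries hold captured polyadenylated RNA, and the difference between the ND genes and the nuclear subunits was not tested.

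On the TMM scale most nuclear subunits listed for complexes II, III and V were called lower as well, and fewer of complex IV. Over all genes 21.1% were called lower and 23.6% higher. On library totals alone the median of each complex lay above 0. In complex II 4 of 4 (median log2 fold change -0.57, or 0.10 on totals alone) were called lower, and in complex III 7 of 9 (median log2 fold change -0.65, or 0.02 on totals alone). In complex V it was 14 of 15 (median log2 fold change -0.53, or 0.15 on totals alone), and in complex IV 4 of 13 (median log2 fold change -0.22, or 0.44 on totals alone). Of these 13, 9 had a log2 fold change below 0 with TMM, against 6416 of all 14012 genes, and 2 on totals alone. For 8 of the 13 every knockout library lay below every control library with TMM, against 24.4% of all genes. Complex IV had 3 of 13 subunits called higher, Cox8a (1.54), Cox6a1 (1.27), Cox6a2 (0.61), near the share of all genes. That count was 1 without control replicate 1, without knockout replicate 1 or without knockout replicate 4, whereas none of the complex I genes was called higher in any of the fits that left out a library. The difference between the complexes was not tested.

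**Figure D5:**
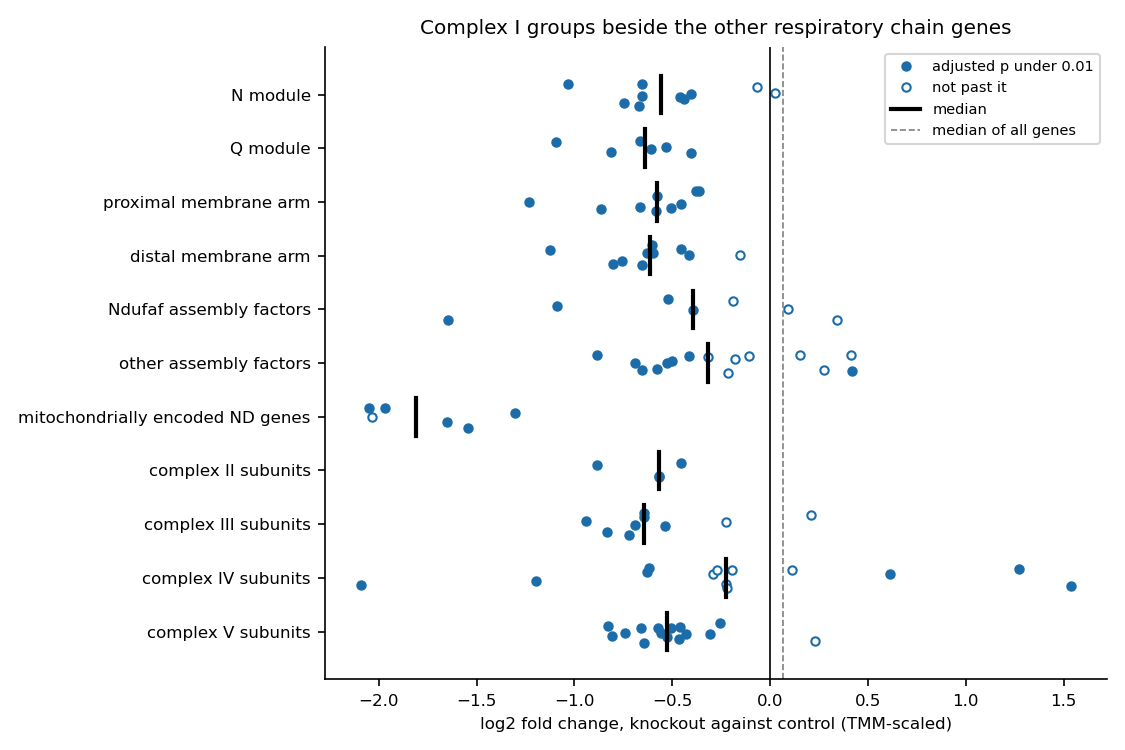
Log2 fold change on TMM-scaled libraries (x axis) of each gene in the modules of complex I, the Ndufaf and other assembly factors, the ND genes and complexes II to V (rows); filled points passed an adjusted p under 0.01, thick bars are medians and the dashed line is the median of all genes. The 4 complex I modules have medians from -0.64 to -0.56 and the ND genes -1.81; on library totals alone the medians of all rows but the ND genes lie above 0.

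Marker genes of several cell types in the muscle differed between the labels on the TMM scale while others overlapped. Their summed levels are given as the range of the controls against the range of the knockouts, with the genes called in brackets. Over all genes 21.1% were called lower and 23.6% higher, and with lists this short several of the counts lie near those shares. Fibre genes summed to 188867 to 242213 CPM against 65306 to 92968 CPM (5 lower and 1 higher of 8 past the threshold), and all 8 were detected in each library. Macrophage genes summed to 34.9 to 85.0 CPM against 71.8 to 129 CPM (0 lower and 1 higher of 5) and adipocyte genes to 247 to 1458 CPM against 682 to 2478 CPM (0 lower and 0 higher of 5). Endothelial genes summed to 248 to 372 CPM against 179 to 202 CPM (4 lower and 0 higher of 4) and mural cell genes to 652 to 869 CPM against 465 to 532 CPM (3 lower and 0 higher of 6). Fibroblast genes summed to 1266 to 1778 CPM against 491 to 728 CPM (3 lower and 0 higher of 4). The brown adipocyte list, which holds the muscle gene Cox7a1, summed to 216 to 283 CPM against 53.7 to 152 CPM (1 lower and 0 higher of 3), with Ucp1 at 0 in at least 1 library. Hypoxia responsive genes, listed for Ndufa4l2, summed to 646 to 682 CPM against 564 to 657 CPM (3 lower and 2 higher of 7). All these sums and calls are on TMM-scaled libraries, and the marker genes are not given on library totals alone. With TMM the median gene stood at a log2 fold change of 0.07, against 0.73 on totals alone. A fall such as that of the endothelial or mural cell genes may thus be smaller or absent there. The part of the marker differences in the values of the Nduf genes was not tested. In bulk muscle fewer cells of a type and less RNA per cell cannot be told apart.

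Promoters were read because most of the genes moved together on the TMM scale. RefSeq windows of 300 bases (GRCm38.p6, 250 before and 50 from the transcription start) were at hand for 39 of the 45 genes, 41 windows in all. On either strand, the letters CGCANGCGC of the NRF1 motif stood in 12 of the 41 (29.3%), against 12.2% of the windows of all genes tested and 6.31% of all windows. AAGATGG, of the YY1 motif, stood in 7 (17.1%, 6.74% and 6.34%). CCGGAAG, of the GABP motif, stood in 5 (12.2%, 15.9% and 8.86%) and GGGCGG, of the SP motif, in 21 (51.2%, 60.3% and 35.7%). TCAAGGTCA, of the ERR motif, stood in 0 (0.272% and 0.423%). No motif searched contains another, and AAGATGG holds ATG, the letters of a start codon. The windows of genes with large falls and of genes that did not pass are shown from 120 bases before to 30 bases from the start, 5′ to 3′ in the direction of the gene, with any of the 5 motifs in capitals.
Ndufaf5, chr2:140170526-140170675, plus strand: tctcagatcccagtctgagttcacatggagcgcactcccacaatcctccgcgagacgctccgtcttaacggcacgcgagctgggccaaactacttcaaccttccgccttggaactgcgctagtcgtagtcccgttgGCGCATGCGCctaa
Ndufc1, chr3:51408926-51409075, minus strand: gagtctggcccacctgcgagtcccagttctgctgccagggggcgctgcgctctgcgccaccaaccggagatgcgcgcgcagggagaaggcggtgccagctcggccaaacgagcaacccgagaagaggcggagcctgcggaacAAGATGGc
Ndufb2, chr6:39592445-39592594, plus strand: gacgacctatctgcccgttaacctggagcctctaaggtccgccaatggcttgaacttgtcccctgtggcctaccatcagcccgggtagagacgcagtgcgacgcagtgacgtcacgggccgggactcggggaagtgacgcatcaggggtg
Ndufa8, chr2:36049309-36049458, minus strand: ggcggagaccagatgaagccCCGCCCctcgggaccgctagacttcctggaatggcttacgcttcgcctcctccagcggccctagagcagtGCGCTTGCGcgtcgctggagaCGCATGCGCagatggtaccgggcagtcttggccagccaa
Ndufa7, chr17:33824452-33824601, plus strand: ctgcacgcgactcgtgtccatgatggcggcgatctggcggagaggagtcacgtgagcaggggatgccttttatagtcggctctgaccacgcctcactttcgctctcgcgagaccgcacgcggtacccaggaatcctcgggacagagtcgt
Ndufaf2, chr13:108158596-108158745, minus strand: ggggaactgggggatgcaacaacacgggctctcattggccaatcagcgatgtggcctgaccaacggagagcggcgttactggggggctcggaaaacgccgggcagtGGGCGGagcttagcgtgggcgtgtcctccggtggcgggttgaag
Ndufaf5, with the largest fall, holds a palindromic NRF1 match that reads on both strands just after the start, and Ndufa8 holds a pair of NRF1 matches just before its start with an SP match further upstream. Ndufc1 holds a YY1 match after the start, and Ndufaf2 an SP match before it. Neither Ndufb2, which fell strongly, nor Ndufa7, which did not pass, holds any of the motifs in the stretch shown. A match is a run of letters and not a measured site.

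Some of the genes share sequence with transcripts of other gene names, which can bear on counts made without multimapping reads where the loci differ. Of the 75-base windows of the coding transcripts, 35.2% of those of Ndufb4, 27.1% of Ndufs3, 22.01% of Ndufa12, 15.7% of Ndufs5 and 8.30% of Ndufab1 also occur in a pseudogene. Those of Ndufb6 (27.8%), Ndufa13 (25.6%) and Ndufb9 (20.3%) occur in a transcript of another gene name that is not a pseudogene. Positions were not compared, so such a transcript may lie at the same locus. How far this lowers their levels was not tested. The genes with the largest falls, Ndufaf5, Ndufc1 and Ndufaf6, share none, and Ndufb2 shares 3.54% with transcripts of another gene name.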

How the data were processed

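QF muscle RNA of 4 control and 4 knockout mice was sequenced, 1 library per mouse as labelled. The authors captured polyadenylated RNA, used NEB's Ultra II Directional kit, sequenced read pairs of 75 bases, mapped them to GRCm38 with STAR 2.5.4b and deposited raw counts per gene on exons (Rsubread), without duplicate, chimeric or multimapping pairs or pairs with a mapping score under 10, and without genes of fewer than 50 reads. Adapters were cut with cutadapt, and bcl2fastq 2.20.0.422 made the reads. The labels and the methods name different RNA extraction reagents. The annotation release and the use of strand are not given in the sources used here. The FPKM columns, also deposited and made from those counts and exon widths, served only to check the levels. The authors' fold changes and p-values (DESeq2 1.32.0) in the same table were not used.

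Genes were chosen by name, and the members, lists and partner pairs were chosen with earlier results of these data known. Named with values in each library were the 2 largest and 2 smallest fold changes among subunits, 1 and 1 among Ndufaf genes, the nuclear core subunits, Ndufa4 and Ndufa4l2, except for 1 core subunit that is not reported here gene by gene. Ndufaf6 was added after its values were seen. All 14012 genes were fitted with edgeR 4.0.16 in R 4.3.3 (TMM factors, glmQLFit and glmQLFTest, the label as the only term), with Benjamini-Hochberg adjustment over all of them, at an adjusted p under 0.01. RPKM is CPM on TMM-scaled libraries over the exon width in kilobases. For single values an exact permutation test took all 70 ways to split 8 libraries evenly, two-sided, with 0.0286 the smallest p it allows, with scipy 1.17.1. Shared sequence was counted in GENCODE M21 transcripts, and promoter windows came from RefSeq. The count of a gene in a library sets its counting error, and member counts ran from 58 to 12507 per library. Replicate libraries differed by more than sampling noise. Alternatives were RLE and upper-quartile factors, library totals alone, totals with the median gene at 0, a filter on low counts, DESeq2 1.42.0, a threshold of 0.05, the replicate number as a block and each library left out. Ndufb1, ND4L and Coa1 were not analysed here, and protein sequences were not used here.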

Additional observations from a re-analysis of the deposited data

Results flagged for a closer look

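In 7 of the 90 groups of 4 libraries checked (45 genes, 2 groups each), 1 library stood apart from the other three by a larger part of the range of the group than Dixon's 95% limit for 4 values, which chance passes in about 1 of 20 groups. Knockout replicate 1 was the high one for Ndufa11 at 79.5 CPM, Ndufa9 at 204 CPM, Ndufb9 at 291 CPM and Ndufv2 at 264 CPM. Control replicate 4 was the low one for Ndufa7 at 89.3 CPM, Ndufa8 at 183 CPM and Ndufaf2 at 7.44 CPM. On TMM-scaled libraries the same libraries stood at the ends of their groups for most subunits. Without knockout replicate 1 the median log2 fold change of the subunits was -0.67 on this scale.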

How the results depend on the processing

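Library totals alone changed most: 4 subunits were lower and 8 higher, 2 Ndufaf factors lower and 3 higher, 0 other factors lower and 8 higher, and 2 subunits of complexes II to V lower and 16 higher, and the medians of subunits and Ndufaf factors turned to 0.068 and 0.28. There 28 of the 45 genes changed sign, and of all genes 6.23% were called lower and 60.6% higher. At an adjusted p under 0.05, 1 Ndufaf factor (Ndufaf2) and 3 other factors were higher. The log2 fold change of Ndufa7, not past the threshold, turned negative with RLE factors (-0.019), with the median gene at 0 (-0.038), with DESeq2 (-0.019) and without 1 of 3 libraries (-0.026 to 0.056 over all 8). With each library left out in turn, 32 to 34 subunits and 3 to 4 Ndufaf factors were lower, 7 to 8 other factors lower, 5 ND genes lower, and 27 to 31 subunits of complexes II to V lower and 1 to 2 higher. Ndufb7, Ndufs5 and Ndufaf4 lost their calls without control replicate 2, and Ndufs5 also without control replicate 3. The deviations of same-numbered libraries from their group means correlated at 0.00314 to 0.4222. Differently numbered libraries were not compared, so whether the numbers pair the samples was not tested. With the replicate number as a block 34 subunits and 4 Ndufaf factors were lower, with medians of -0.60 and -0.39. The other alternatives left the counts of complex I genes within 1.5 times, and the authors' FPKM gave each control level within 1 SD. Of the subunits of complexes II to V, 29 were lower in the main fit, 35 with DESeq2 and 35 at an adjusted p under 0.05. A count of 58 for the lowest member limits the precision of Ndufa4l2 most.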
